A study of Homo sapiens with 2 samples.

Results

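Nuclear receptor genes encode transcription factors that bind DNA through a zinc finger domain and, for many members, switch target genes on or off when a small lipid-soluble ligand such as a steroid, thyroid hormone, retinoic acid, fatty acid or oxysterol enters the ligand pocket. The 43 genes described here were chosen by name from the superfamily, without the HNF4 genes and the vitamin D receptor gene, and all 43 were found among the 51640 gene symbols of the data, each with a usable estimate in every library. They were measured by paired-end RNA sequencing of total RNA in 2 libraries, named PF and PJ, which the submitters describe as biological replicates of HCT116, a line of epithelial cells grown out of a human colon carcinoma. The cells carried no engineered allele and no drug or hormone treatment that the labels record. They were grown to near confluence in DMEM with fetal bovine serum and antibiotics, serum being a source of lipid-soluble hormones. What PF and PJ stand for is not given, and normal colon libraries that the design mentions were not analysed here, so the data describe the receptor set of the cell line and how far its replicates differ.

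Several receptors work as pairs: retinoid X receptors (RXR) form heterodimers with retinoic acid, thyroid hormone, fatty acid (PPAR), oxysterol (LXR), bile acid (FXR) and xenobiotic (PXR, CAR) receptors. Steroid receptors bind DNA as homodimers after release from chaperones. The rest are orphan receptors, some of which act without a known natural ligand. In the intestine, nuclear receptors are known for control of lipid and bile acid handling, epithelial renewal and the daily clock.

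Levels are given as FPKM (fragments per kilobase, scaled to the mapped fragments of the library), which allows levels of different genes to be set side by side, with the deposited 95% bounds in parentheses. Genes that reached 1 FPKM in each of the libraries are called expressed. Differences between the libraries are log2 values of (PJ + 1)/(PF + 1), which understate the change of low genes. With 1 library on each side there is no replicate check and no p-value. The median gene at 1 FPKM or more in both libraries was 1.19 times as high in PJ as in PF, a shift of 0.25 on the log2 scale, and differences are also given after this ratio was divided out.

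The samples were checked against markers. The epithelial genes EPCAM, KRT8, KRT18, KRT19 and CDH1 were expressed in 5 of 5 cases, with a summed level of 1518 FPKM in PF and 896 in PJ. KRT8 made up much of the fall in the sum, at 760 FPKM in PF against 280 in PJ. CDH1, which encodes E-cadherin, stood at 21.9 FPKM in PF against 1.80 in PJ. EPCAM (213 and 143) and KRT18 (216 and 147) were lower in PJ by less than 2-fold, and KRT19 (306 and 325) was slightly higher. Of 6 colon epithelium genes only CDX2 was expressed, at 12.3 and 9.32 FPKM, while VIL1, CDH17, GPA33, CA1 and MS4A12 were under 1 FPKM in both. None of the immune (0 of 4), stroma (0 of 4) or endothelium (0 of 3) markers was expressed in both libraries, with summed levels of 0.694, 0.190 and 0.213 FPKM for PF and of 2.06, 0.714 and 0.131 for PJ. The part of these marker differences in the results below was not tested, and in bulk RNA a smaller number of expressing cells and less RNA per cell cannot be told apart.

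HCT116 cells expressed 22 of the 43 nuclear receptor genes in both libraries, or 51.2%. Among all symbols with a value the share was 27.9%, and among protein-coding symbols 57.3%, so the receptors were near the level of protein-coding genes in general. A further gene, NR5A2, passed in PJ only, and 20, called silent here, were under 1 FPKM in both libraries. The expressed receptors ranged from 1.36 to 79.1 FPKM in PF and from 1.42 to 74.9 in PJ. Their medians were 14.0 and 11.1 FPKM, beside 13.8 and 16.4 for all protein-coding symbols expressed in both, and 12 of them reached 10 FPKM in both libraries. The 43 genes summed to 416 FPKM in PF and 355 in PJ. By role, 8 of 13 RXR partners, 2 of 3 RXRs, 1 of 5 steroid receptors and 11 of 22 orphan or other receptors were expressed.

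**Figure D1:**
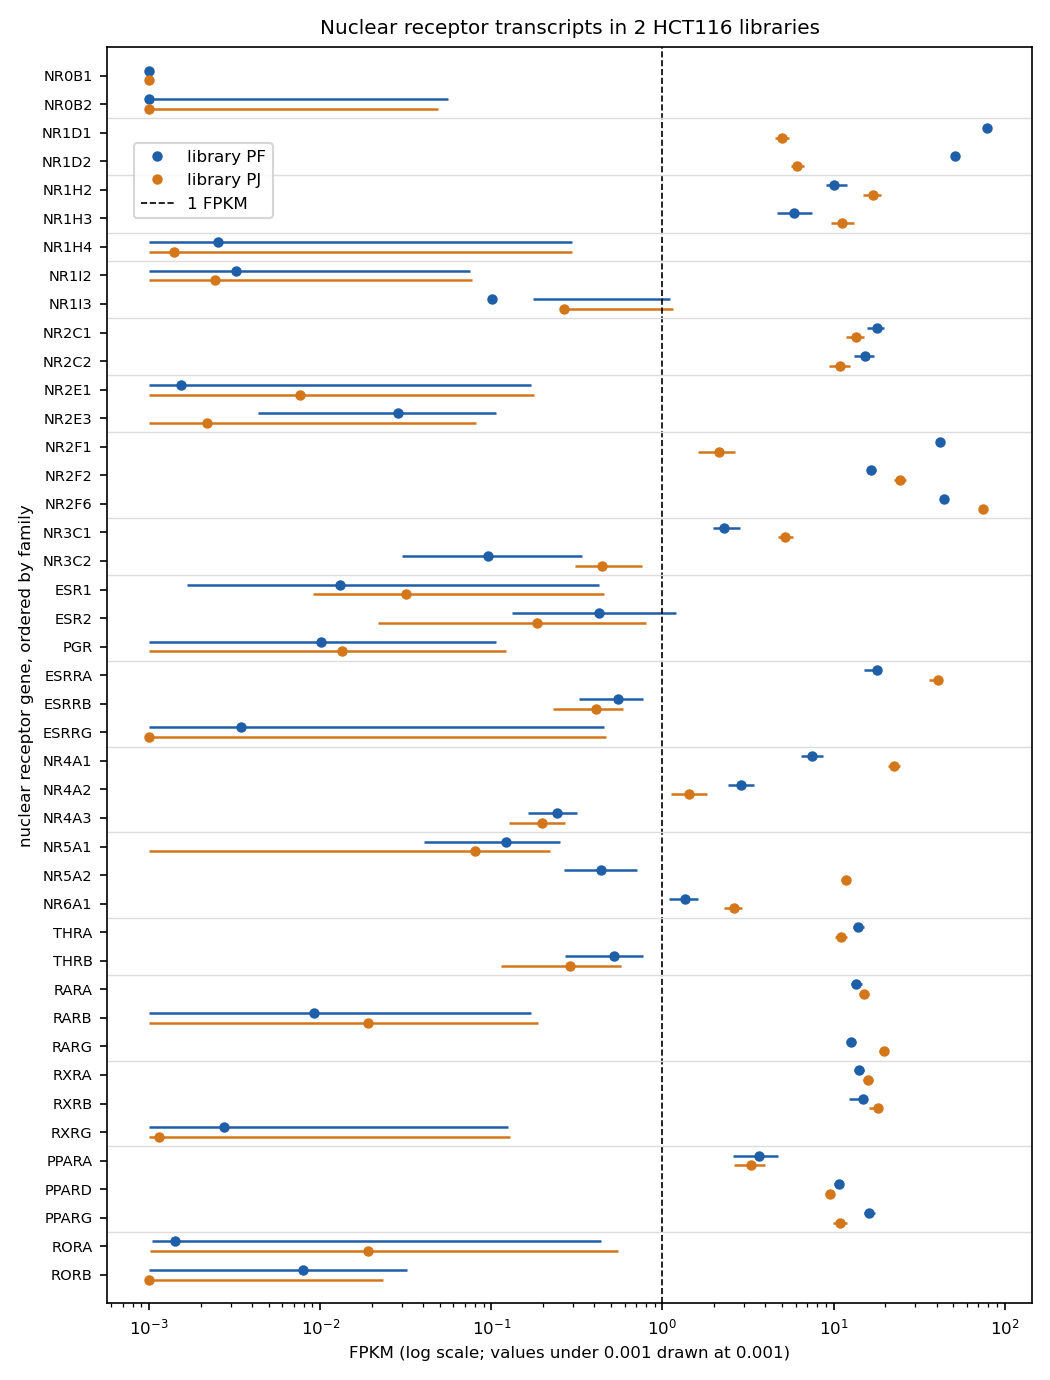
Level of each of the 43 nuclear receptor genes on a log FPKM axis, with 1 point per library (PF blue, PJ orange) and horizontal lines for the deposited 95% bounds, in rows grouped by family; values and bounds under 0.001 are drawn at 0.001. To the right of the dashed line at 1 FPKM lie 22 genes in both libraries, NR5A2 crosses it between the libraries, and 20 genes lie to its left.

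Among the retinoid X receptors, the common heterodimer partners, RXRA and RXRB were expressed at similar levels and RXRG was not. RXRA (ENSG00000186350.8; hg19, chromosome 9, 137208944 to 137332431) was at 14.1 FPKM (13.2 to 15.1) in PF and 15.9 (14.8 to 16.9) in PJ, and its bounds overlapped between the libraries. RXRB (chromosome 6, 33161365 to 33168630) was at 14.8 FPKM in PF against 18.2 in PJ, but its PF estimate lay above its own upper bound of 14.4. RXRG was at 0.00275 and 0.00114 FPKM. The RXR genes summed to 28.9 FPKM in PF and 34.0 in PJ, while the 13 genes of their partners summed to 87.3 and 98.1.

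The retinoic acid receptors showed the same arrangement of expressed and silent copies. RARA (chromosome 17, 38465444 to 38513094) was at 13.6 FPKM (12.6 to 14.6) in PF and 15.0 (14.0 to 16.1) in PJ, with overlapping bounds. RARG (chromosome 12, 53604354 to 53626764) was at 12.7 FPKM (11.8 to 13.6) in PF and 19.7 (18.5 to 20.8) in PJ, a log2 difference of 0.59, or 0.36 after the shift. RARB, a receptor gene that is itself a known retinoic acid target, was at 0.00921 FPKM in PF against 0.0191 in PJ, with upper bounds of 0.171 and 0.188.

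Genes that make, carry and remove retinoids were expressed in 6 of 11 cases. CRABP2, which carries retinoic acid to its receptors, was the highest at 166 FPKM in PF against 324 in PJ, and ALDH1A3, which makes retinoic acid, was at 40.1 and 49.2. ALDH1A1 and ALDH1A2, which encode enzymes of the same step, were under 0.1 FPKM in both libraries, and CRABP1 and ALDH1A1 were the lowest, at 0.00202 FPKM or less. The 6 expressed genes included DHRS3, a retinaldehyde reductase gene that responds to retinoic acid, which differed most: it was at 15.2 FPKM in PF against 2.21 in PJ, a log2 difference of -2.34. CYP26B1, which degrades retinoic acid, was at 4.53 and 9.95 FPKM, opposite in direction to DHRS3. Among 7 known retinoic acid target genes, 2 were expressed, DHRS3 and TGM2 (3.43 and 1.67 FPKM), while CYP26A1 was at 0.429 and 1.01, and RARRES1 was the lowest at 0.0529 and 0.0243.

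Of the thyroid hormone receptors THRA was expressed and THRB was not. THRA (chromosome 17, 38214543 to 38250120) was at 13.9 FPKM (13.0 to 15.0) in PF and 11.0 (10.2 to 11.9) in PJ, and THRB at 0.519 and 0.288. Deiodinases activate or inactivate thyroid hormone, and the estimates of the 3 genes were under 1 FPKM, DIO1 at 0.614 and 0.107 FPKM, DIO2 at 0.160 and 0.617 and DIO3 at 0.388 and 0.598. Their upper bounds were far above it, at 128 in each library for DIO1, 69.1 and 76.1 for DIO2 and 44.4 and 46.3 for DIO3, so the data do not place these genes under the threshold. Both DIO1 estimates lay under their own lower bounds of 0.722 and 0.285.

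All 3 PPAR genes, receptors for fatty acids and their derivatives, were expressed, and each was somewhat lower in PJ. PPARG (chromosome 3, 12328867 to 12475855), known in the colon as a receptor of differentiating epithelium, was at 16.2 FPKM (15.0 to 17.5) in PF and 11.0 (9.95 to 12.0) in PJ. PPARD was at 10.7 FPKM (10.1 to 11.4) in PF and 9.48 (8.85 to 10.1) in PJ, and PPARA at 3.65 (2.57 to 4.74) and 3.30 (2.61 to 3.96), and for PPARD and PPARA the bounds of the 2 libraries overlapped. None of the 3 differed 2-fold, with log2 differences of -0.53, -0.16 and -0.12.

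Known PPAR targets were expressed in 5 of 8 cases. The mitochondrial fatty acid oxidation gene ACADVL was at 154 FPKM in PF against 104 in PJ, CPT1A, for fatty acid entry into mitochondria, at 18.3 and 24.8, and the lipid droplet gene PLIN2 at 15.7 and 16.9. ANGPTL4, which encodes a secreted lipase inhibitor, was at 1.40 FPKM in PF against 4.51 in PJ. PDK4, which encodes a kinase that limits glucose oxidation, was under the threshold at 0.580 and 0.271 FPKM.

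The oxysterol receptors were expressed in both forms and higher in PJ. NR1H2 (LXR beta; chromosome 19, 50832910 to 50886239) was at 10.1 FPKM (9.04 to 12.0) in PF and 16.9 (14.8 to 19.0) in PJ, and NR1H3 (LXR alpha; chromosome 11, 47269851 to 47290396) at 5.85 (4.68 to 7.44) and 11.2 (9.71 to 13.1). Neither differed 2-fold, with log2 differences of 0.69 and 0.83, or 0.46 and 0.60 after the shift. The 4 of 6 known LXR targets whose mean reached 1 FPKM were lower in PJ. SCD, a fatty acid desaturase gene, was at 220 FPKM in PF against 212 in PJ, SREBF1, which encodes a regulator of fatty acid synthesis, at 136 and 66.8, and LPCAT3 at 32.5 and 24.7. MYLIP, which encodes the ligase that degrades the LDL receptor, was at 11.3 and 2.83, a log2 difference of -1.68. The cholesterol exporter genes ABCA1 and ABCG1, the best known LXR targets, were under the threshold, ABCA1 at 0.423 and 0.0370 FPKM and ABCG1 at 0.813 and 0.118. Of 5 oxysterol-metabolising enzyme genes only SULT2B1 was expressed, at 1.32 and 1.61 FPKM, ahead of CYP46A1 (0.518 and 0.0758) and CYP27A1 (0.328 and 0.112), and CH25H was listed at 0 in both.

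The bile acid and xenobiotic receptors were not expressed. NR1H4, the bile acid receptor FXR of ileum and liver, was at 0.00252 FPKM in PF against 0.00140 in PJ, and NR1I2, the xenobiotic receptor PXR, at 0.00323 and 0.00244. NR1I3, the receptor CAR, was at 0.10 and 0.267 FPKM, and its PF estimate lay under its own lower bound of 0.175, with upper bounds of 1.11 and 1.16. None of the 6 PXR and CAR target genes was expressed in both libraries: the drug exporter gene ABCB1 was at 1.01 and 0.157 FPKM, CYP3A5 at 0.206 and 0.396, and UGT1A1 was listed at 0. Among 5 FXR targets 2 were expressed. FABP6, an ileal bile acid binding protein gene, was at 2.71 FPKM in PF against 20.7 in PJ, a log2 difference of 2.55, and FGF19, which encodes an enterohepatic hormone, at 1.61 and 6.18. The bile acid transporter genes SLC51A and ABCB11 were at 1.42 and 0.000544 FPKM for PF and at 0.824 and 0.000410 for PJ.

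Of the 5 steroid receptor genes only NR3C1, the glucocorticoid receptor gene, was expressed. NR3C1 (ENSG00000113580.10; chromosome 5, 142657496 to 142815077) was at 2.27 FPKM (1.99 to 2.85) in PF and 5.17 (4.75 to 5.83) in PJ, a low level beside the RXR and RAR genes. Its log2 difference of 0.91 missed 2-fold with a pseudocount of 1 and passed it with 0.5 (1.03), and was 0.71 after the shift. The mineralocorticoid receptor gene NR3C2, which in the distal colon serves sodium uptake, was at 0.0961 FPKM (0.0300 to 0.338) in PF and 0.440 (0.308 to 0.759) in PJ. Oestrogen receptor genes were silent: ESR1 was at 0.0130 and 0.0316 FPKM, and ESR2, the form found in normal colon epithelium, at 0.428 and 0.185, with an upper bound of 1.197 in PF. The progesterone receptor gene PGR was at 0.0102 and 0.0134 FPKM.

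The chaperones that hold steroid receptors ready for ligand were expressed in 9 of 9 cases, from HSP90AB1 (1297 FPKM in PF and 1443 in PJ), HSP90AA1 (728 and 862) and HSPA8 (413 and 1190) down to FKBP5 (36.7 and 59.3). All 9 were higher in PJ as deposited, where the median log2 difference of all symbols whose mean reached 1 FPKM was 0.22. The share of those symbols higher by any amount was not computed. At least 2-fold higher were 3 of the 9, HSPA8 (log2 difference 1.52), DNAJB1 (1.37) and PPID (1.13), beside 10.4% of those symbols. After the shift was divided out HSP90AA1 and HSP90AB1 were at -0.0047 and -0.09, and 2 of the 9 genes, HSPA8 (1.28) and DNAJB1 (1.12), were at least 2-fold higher, beside 6.29% of all symbols. Of 7 glucocorticoid target genes 5 were expressed, led by PER1 (70.8 and 17.6 FPKM), FKBP5 and DUSP1 (7.95 and 8.21), and the lowest was ZBTB16 (0.00173 and 0.0619). Aldosterone targets were expressed in 2 of 4 cases, SCNN1A, an epithelial sodium channel gene, at 25.5 and 11.0 FPKM and SGK1 at 2.32 and 3.30, with SCNN1B and SCNN1G under 0.1. Oestrogen targets were expressed in 2 of 4 cases, XBP1 at 16.1 and 39.8 FPKM and GREB1 at 2.46 and 4.71, with PDZK1 at 0.275 and 0.137 and TFF1 at 0.000335 FPKM for PF but listed at 0 for PJ. Of 13 enzymes and transporters for steroid and thyroid hormones 3 were expressed, HSD17B4 (34.2 and 52.9), HSD17B8 (7.49 and 10.8) and HSD11B2 (6.60 and 9.35), the last of which inactivates cortisol, and SULT1E1 was the lowest, under 0.1 FPKM in both.

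The COUP transcription factor family, orphan receptors that mostly repress, had nearly the same summed level as deposited in the 2 libraries but a different make-up. NR2F6 (EAR2; ENSG00000160113.5; chromosome 19, 17342692 to 17356749) was at 44.5 FPKM (43.1 to 46.5) in PF and 74.9 (73.3 to 77.9) in PJ, the highest receptor in PJ. NR2F2 (COUP-TFII; chromosome 15, 96869167 to 96883492) was at 16.5 FPKM (15.6 to 17.6) in PF and 24.5 (22.5 to 26.5) in PJ. NR2F1 (COUP-TFI; ENSG00000175745.7; chromosome 5, 92919043 to 92930321) ran the other way, at 41.8 FPKM (40.8 to 43.6) in PF and 2.13 (1.61 to 2.65) in PJ. The level of NR2F1 was 19.6 times as high in PF, a log2 difference of -3.77, and 79 of the 15736 symbols whose mean reached 1 FPKM had a lower value. The antisense gene RP11-65F13.2, which overlaps NR2F1 over 2312 bp on the opposite strand, was at 9.04 FPKM in PF against 1.67 in PJ. The 3 receptor genes together came to 102.8 FPKM in PF and 101.5 in PJ, without the median ratio of 1.19 divided out.

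**Figure D2:**
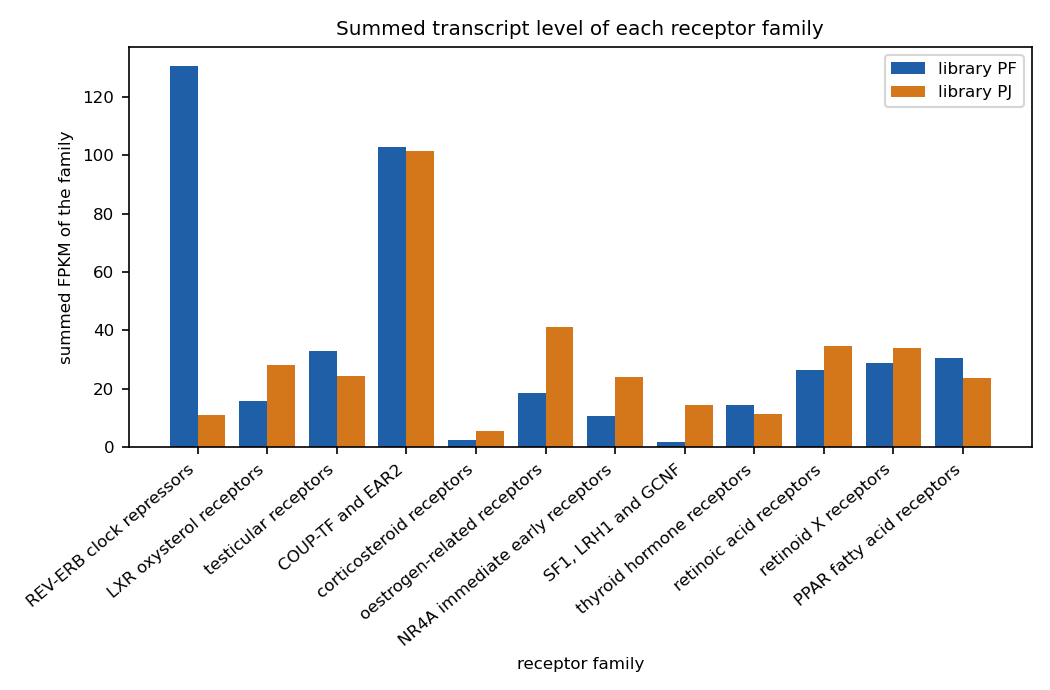
Summed FPKM of each receptor family with an expressed member, in library PF (blue) and library PJ (orange); there is 1 library per bar, so no error bar. The REV-ERB sum stands at 130.5 in PF and 11.2 in PJ, while the COUP-TF and EAR2 sum is 102.8 and 101.5. Sums are as deposited, without the median ratio divided out.

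NR1D1 and NR1D2 encode the REV-ERB receptors, heme-binding repressors of the circadian clock, and were the highest nuclear receptor genes in PF. NR1D1 (ENSG00000126368.5; chromosome 17, 38249040 to 38256978) was at 79.1 FPKM (77.3 to 82.0) in PF and 5.0 (4.54 to 5.47) in PJ, a level 15.8 times as high in PF and a log2 difference of -3.74. NR1D2 (ENSG00000174738.7; chromosome 3, 23986751 to 24021237) was at 51.4 FPKM (50.4 to 53.6) in PF and 6.15 (5.63 to 6.69) in PJ, a level 8.36 times as high in PF and a log2 difference of -2.87. By level among the 43 genes they were placed 1 and 2 in PF but 19 and 17 in PJ. The ROR receptors, activators that read the same DNA element as the REV-ERBs, were silent, RORA at 0.00141 FPKM in PF against 0.0191 in PJ and RORB at 0.00789 and 0.000372.

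All 9 other clock genes examined were expressed, and they split in direction. PER1, a clock repressor gene, was at 70.8 FPKM in PF against 17.6 in PJ, a log2 difference of -1.95. DBP, a clock output gene, was at 26.3 and 12.2 FPKM, CRY2 at 16.4 and 6.60 and CLOCK at 9.48 and 4.49. ARNTL, which encodes the partner of CLOCK and is a textbook target of REV-ERB repression, was at 5.71 FPKM in PF against 11.2 in PJ, its relative NPAS2 at 5.39 and 11.2, NFIL3 at 14.5 and 21.7 and CRY1 at 16.0 and 20.7. PER2 was at 4.58 and 4.40, the lowest mean of the list. PER1, CRY2 and DBP were at least 2-fold lower in PJ, no gene was 2-fold higher, and CLOCK also passed 2-fold after the shift, with a log2 difference of -1.13. Among all symbols 5.22% were 2-fold lower and 10.4% higher, and 7.14% were lower after the shift.

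The sequences upstream of the 4 receptor genes that differed at least 4-fold are shown because NR1D1 and NR1D2 are lower together in PJ and clock factors bind E-boxes near clock gene starts. They come from RefSeq promoter windows (build GRCh38.p14), which were matched for 40 of the 43 genes, and were cut where an exon of GENCODE 29 begins, 5′ to 3′ on the strand of the gene. Capitals mark the E-box CACGTG, the related motif CACGTT, which on the other strand reads AACGTG, and the receptor hexamer AGGTCA, each searched on both strands.
NR1D1, chr17:40100726-40100839, minus strand: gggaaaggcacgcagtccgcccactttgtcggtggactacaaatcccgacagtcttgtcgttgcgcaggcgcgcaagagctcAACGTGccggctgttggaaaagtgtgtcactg
NR1D2, upstream start, chr3:23945036-23945259, plus strand: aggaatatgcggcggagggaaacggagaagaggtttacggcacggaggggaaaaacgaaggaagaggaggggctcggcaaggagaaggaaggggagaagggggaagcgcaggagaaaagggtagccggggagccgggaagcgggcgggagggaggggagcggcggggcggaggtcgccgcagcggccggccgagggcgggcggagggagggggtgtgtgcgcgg
NR1D2, downstream start, chr3:23945871-23946120, plus strand: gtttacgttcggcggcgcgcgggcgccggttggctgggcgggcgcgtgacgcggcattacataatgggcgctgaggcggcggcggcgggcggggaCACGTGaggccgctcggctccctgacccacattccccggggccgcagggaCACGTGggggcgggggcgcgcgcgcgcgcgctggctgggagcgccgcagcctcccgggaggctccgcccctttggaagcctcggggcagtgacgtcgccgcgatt
NR2F1, upstream start, chr5:93582972-93583221, plus strand: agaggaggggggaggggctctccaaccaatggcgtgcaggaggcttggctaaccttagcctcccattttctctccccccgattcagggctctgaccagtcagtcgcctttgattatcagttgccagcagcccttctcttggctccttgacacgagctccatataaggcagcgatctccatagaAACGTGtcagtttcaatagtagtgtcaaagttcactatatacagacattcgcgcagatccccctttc
NR5A2, upstream start, chr1:200027460-200027601, plus strand: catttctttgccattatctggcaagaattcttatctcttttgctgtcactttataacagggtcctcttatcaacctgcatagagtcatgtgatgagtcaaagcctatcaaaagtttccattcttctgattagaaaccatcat
NR5A2, downstream start, chr1:200042341-200042590, plus strand: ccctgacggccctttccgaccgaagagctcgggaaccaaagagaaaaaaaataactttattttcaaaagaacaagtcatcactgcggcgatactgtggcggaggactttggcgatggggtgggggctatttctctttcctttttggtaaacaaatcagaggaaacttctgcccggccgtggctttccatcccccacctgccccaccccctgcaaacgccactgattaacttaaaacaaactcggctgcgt
The downstream NR1D2 window held 2 copies of CACGTG and the upstream window none, and the NR1D1 and NR2F1 windows each held 1 CACGTT. Neither NR5A2 stretch shown held any of the 3, but the full upstream window of NR5A2, which runs on past the start of an exon, held AGGTCA in the bases not shown. Over full windows of 250 bases, CACGTG was present in 6.34% of all 35116 windows and in 6 of 94 windows of the receptor genes (6.38%), CACGTT in 4.55% and 3 of 94 (3.19%), and AGGTCA in 12.1% and 15 of 94 (16.0%). Windows of the same gene can overlap, and which start HCT116 cells used was not examined. The second NR2F1 window, inside the gene, held none of the 3 and is not shown.

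REV-ERB, thyroid hormone and retinoic acid receptor genes lie in related groups on chromosomes 17 and 3. Counting these receptors, 12 genes are listed in the chromosome 17 region and 18 in the chromosome 3 region. On chromosome 17, NR1D1 shares 1081 bp with THRA on the opposite strand, and RARA lies 208 kb further on. THRA and RARA did not differ 2-fold (log2 differences -0.31 and 0.13) beside the -3.74 of NR1D1. On chromosome 3, NR1D2 lies 137 kb from THRB, which lies 679 kb from RARB, and only NR1D2 was expressed. Because of the shared stretch, and because no use of strand in the counting is stated, some fragments of NR1D1 and THRA could have been given to the other gene. How fragments were assigned between them was not tested. In all, 10 of the 23 receptor genes whose mean reached 1 FPKM overlap another expressed gene, 9 of them on the opposite strand by the GENCODE 29 annotation. The share of all expressed symbols with such an overlap was not computed, so the count does not set receptors apart from other genes. Among the 10, ESRRA and TRMT112 (181 and 344 FPKM) share 284 bp, and NR2C2 and MRPS25 (20.6 and 36.8 FPKM) share 11141 bp. NR3C1 shares 635 bp with RP11-278J6.1 on the opposite strand, which at 13.6 FPKM in PF and 30.1 in PJ was above NR3C1 itself. PPARG shares 272 bp with AC091492.2 (18.9 and 19.2 FPKM) on the same strand. What these overlaps add to the receptor levels was not tested.

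NR5A2 (LRH-1; ENSG00000116833.9; chromosome 1, 199996730 to 200146552), a receptor of gut and liver known for roles in intestinal crypt renewal and local steroid synthesis, was the receptor gene with the highest ratio of PJ to PF. It was at 0.440 FPKM (0.267 to 0.715) in PF and 11.8 (11.1 to 12.5) in PJ, a level 26.8 times as high in PJ. Its log2 difference was 3.15, and 80 of the 15736 symbols had a higher value. Of its relatives, NR5A1, the steroidogenic factor gene of adrenal and gonad, was at 0.122 and 0.0806 FPKM with overlapping bounds, and NR6A1 (GCNF), a germ cell factor gene that lies 10.2 kb from NR5A1, at 1.36 (1.09 to 1.62) and 2.61 (2.29 to 2.92), 1.93 times as high in PJ with bounds apart. NR0B1 and NR0B2 (SHP), receptors without a DNA-binding domain that repress NR5A factors, were silent: NR0B1 was listed at 0 in both libraries, and the upper bounds of NR0B2 were 0.0556 and 0.0486 FPKM.

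The NR4A genes, immediate early receptors that respond to growth signals, differed in opposite directions. NR4A1 (chromosome 12, 52416616 to 52453291) was at 7.48 FPKM (6.44 to 8.66) in PF and 22.5 (20.7 to 24.5) in PJ, a log2 difference of 1.47, and 1.24 after the shift. NR4A2 was at 2.87 FPKM (2.41 to 3.41) in PF and 1.42 (1.12 to 1.82) in PJ, and NR4A3 at 0.242 and 0.197, under the threshold. The oestrogen-related receptor gene ESRRA (chromosome 11, 64073044 to 64084215), a regulator of mitochondrial energy genes, was at 17.9 FPKM in PF against 40.7 in PJ, each above its own upper bound of 17.8 and 40.1. Its log2 difference was 1.14 as deposited and 0.90 after the shift, under 2-fold. ESRRB was at 0.550 and 0.407 FPKM, and ESRRG at 0.00343 and 0.000421. PPARGC1A, which encodes the main inducible coactivator of ESRRA, was at 0.0187 and 0.00938 FPKM, while its relatives PPARGC1B (2.73 and 3.18) and PPRC1 (46.9 and 51.2) were expressed.

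The testicular receptors NR2C1 and NR2C2, which bind direct repeats as a pair, were at 17.8 FPKM (15.7 to 19.8) and 15.2 (13.2 to 17.2) in PF and 13.5 (11.9 to 15.0) and 10.9 (9.36 to 12.5) in PJ. Each was lower in PJ by less than 2-fold (log2 differences -0.38 and -0.44). NR2E1 (TLX), a neural stem cell receptor, was at 0.00154 and 0.00757 FPKM and NR2E3 (PNR), a photoreceptor factor, at 0.0283 and 0.00219. Of the 20 silent receptors, 13 were under 0.1 FPKM in both libraries, and 7 reached 0.1 in at least 1: NR1I3, NR3C2, ESR2, ESRRB, NR4A3, NR5A1 and THRB.

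Across the 23 receptors whose mean reached 1 FPKM, 3 were at least 2-fold higher in PJ (NR5A2, NR4A1 and ESRRA), beside 10.4% of all symbols and 10.7% of protein-coding symbols with such a mean. At least 2-fold lower in PJ were 3 (NR1D1, NR1D2 and NR2F1), beside 5.22% of all and 4.38% of protein-coding symbols. With the shift divided out the numbers were 2 and 3, beside 6.29% and 7.14% of all symbols and 6.07% and 6.43% of protein-coding symbols. All 3 lower genes also passed 4-fold, beside 1.35% of all and 0.898% of protein-coding symbols, and 1 gene was 4-fold higher, beside 1.37% and 0.924%. The median log2 difference of the 23 was 0.16, beside 0.22 for all 15736 symbols, and the other 17 stayed within 2-fold on FPKM + 1. Of these, NR3C1 (2.27 times as high in PJ) and NR4A2 (2.02 times as high in PF) passed 2-fold on plain FPKM. The deposited bounds were apart for 19 of the 23, 11 higher and 8 lower in PJ, beside 44.5% and 18.2% of all symbols and 51.1% and 20.8% of protein-coding symbols. The bounds cover the error of an estimate inside its library, not the spread from culture to culture.

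**Figure D3:**
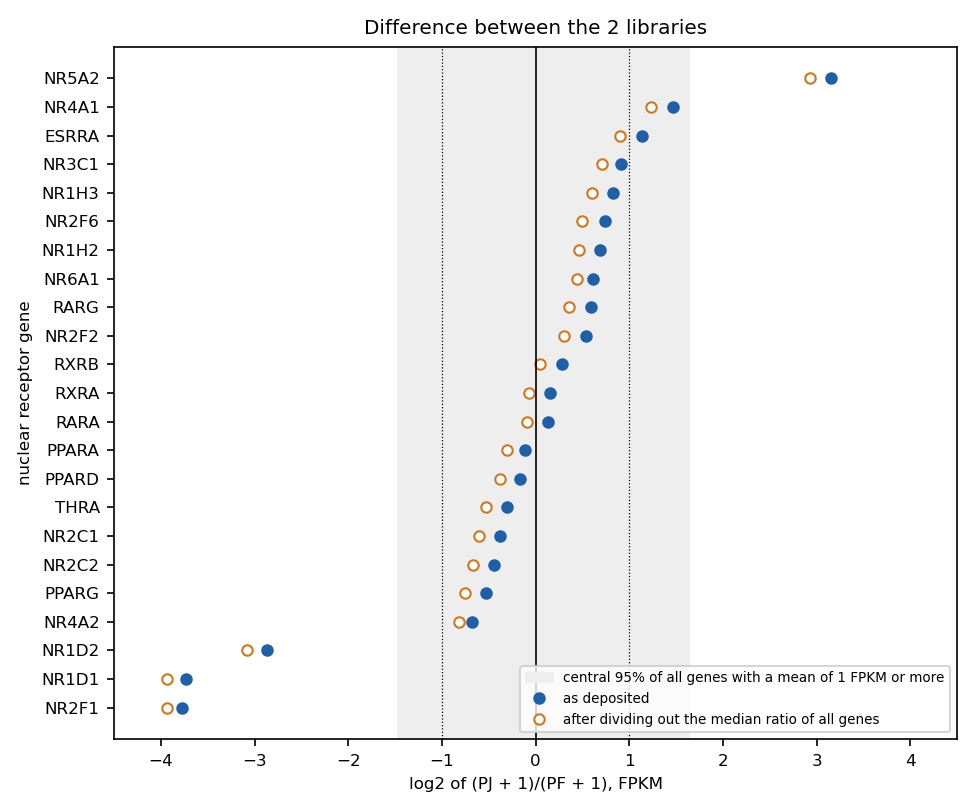
Log2 of (PJ + 1)/(PF + 1) in FPKM for the 23 nuclear receptor genes whose mean reached 1 FPKM, as deposited (filled) and after the median ratio of all genes was divided out (open); the grey band is the central 95% of all 15736 symbols, from -1.46 to 1.64, and dotted lines mark 2-fold. NR2F1, NR1D1 and NR1D2 lie to the left of the band and NR5A2 to its right, and the other 19 lie inside it.

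The order of levels was not the same in the 2 libraries. Ranked by mean, the expressed receptors ran from NR2F6, NR1D1, ESRRA, NR1D2 and NR2F1 through NR2F2 and RXRB down to NR3C1, PPARA, NR4A2 and NR6A1. Of 21 neighbouring pairs in this order, 5 had the same order in both libraries and 16 were ordered one way in PF and the other way in PJ. Neighbours by mean have similar means, so a gene higher in PF than its neighbour tends to be lower in PJ. The choice of pairs thus favours opposite order, and the count does not measure how far the whole order differs. The bounds of neighbours overlapped in both libraries for 1 pair, NR2C2 and THRA, in 1 library for 5 pairs, and in neither for 15.

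Coregulators, the proteins through which receptors act on chromatin, were expressed almost throughout. Of 13 coactivator genes with a value, 12 were expressed, led by the arginine methyltransferase genes PRMT1 (332 FPKM in PF and 337 in PJ) and CARM1 (64.1 and 65.4) and by PPRC1, with PPARGC1A the exception. The p160 coactivator genes NCOA1, NCOA2 and NCOA3 were at 4.53, 8.75 and 5.14 FPKM for PF, with 4.85, 5.67 and 7.40 for PJ. The acetyltransferase genes CREBBP and EP300 were at 24.2 and 18.8 FPKM for PF, with 14.4 and 10.3 for PJ. No coactivator differed 2-fold, except EP300 after the shift (-1.04). Of 9 corepressor genes with a value, 8 were expressed, with HDAC3 (68.6 and 69.2) and GPS2 (42.8 and 58.5) highest and NCOR1 at 13.0 and 8.02. NRIP1 (RIP140), a ligand-dependent corepressor gene, was the exception, at 11.6 FPKM in PF against 0.0421 in PJ, a log2 difference of -3.60. KDM1A had no estimate in PF and was at 118 FPKM in PJ. Over all 15 lists, counting each gene once, 66 of 110 genes with a value were expressed. The shares were 27.9% among all symbols and 57.3% among protein-coding symbols, so the lists as a whole were near protein-coding genes in general. A mean of 1 FPKM was reached by 69, of which 7 were at least 2-fold higher and 8 at least 2-fold lower in PJ, beside 10.4% and 5.22% of all symbols, so the higher count was near the background share. After the shift the counts were 5 and 11, beside 6.29% and 7.14%.

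**Figure D4:**
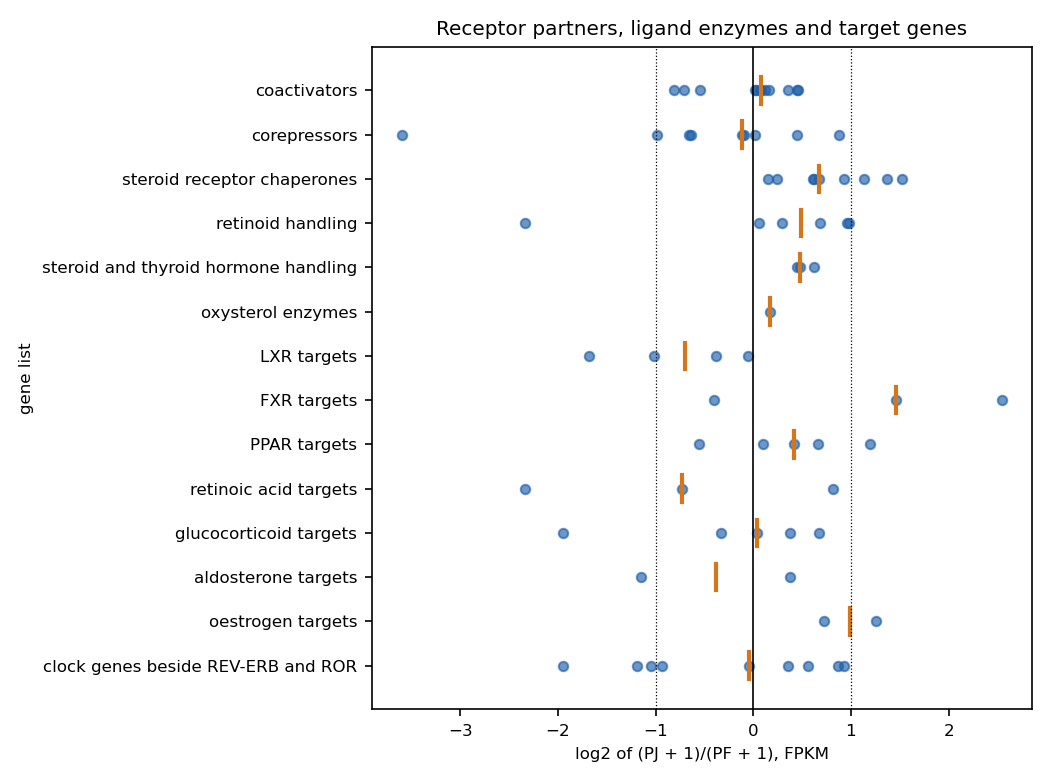
Log2 of (PJ + 1)/(PF + 1) in FPKM for coregulator, chaperone, ligand enzyme, target and clock genes whose mean reached 1 FPKM, 1 point per gene in each list, with the list median as an orange bar and dotted lines at 2-fold; some genes are in more than 1 list. NRIP1 at -3.60 and DHRS3 at -2.34 lie farthest to the left and FABP6 at 2.55 farthest to the right.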

How the data were processed

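RNA of 2 HCT116 libraries was sequenced from TruSeq V2 paired-end libraries, per the labels' protocols. Reads were processed with TopHat2 2.0.8b, TopHat and Cufflinks on hg19, per the submitters' processing notes; for the Cufflinks version and the annotation, nothing is given in the sources used here. Tables that the authors deposited hold FPKM with 95% bounds and a status for 56586 genes per library, per the file headers. FPKM scales by transcript length and library total, so abundant RNAs lower all other values, and the depth in fragments is unknown. Status FAIL (23 genes in PF, 20 in PJ, no receptor) was treated as missing. FPKM of rows sharing a symbol were summed. Coordinates are hg19, counted from 1. Gene type and strand came from GENCODE 29 by identifier (88.7% matched). The text names all receptors, and of each list the 3 highest means, the lowest, and genes at least 4-fold apart; other list genes were picked after seeing values. Receptors and lists were chosen with earlier results of these data known. NCOA7 was not analysed here, and some list genes that the rule names are not reported here. Alternatives changed thresholds, pseudocounts, filters, scaling and library. Python 3.11.15, numpy 2.4.6 and pandas 2.3.3 were used.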

Additional observations from a re-analysis of the deposited data

How the results depend on the processing

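The count of 22 expressed receptors was the same at 0.5 FPKM, with the lower bound as the value, without low-data rows and with the highest row per symbol, 20 at 2 FPKM and 12 at 10 FPKM; from 1 library alone it ran from 22 to 23. For the 15 lists the count of 66 became 37 at 10 FPKM and was 69 from either library alone. The 3 receptors 2-fold higher in PJ became 4 with a pseudocount of 0.1 or 0.5, where the 3 lower stayed 3. The higher count became 11 when the bounds had only to be apart and 1 at 4-fold. The 3 lower became 8 when the bounds had only to be apart. The median log2 difference of the receptors, 0.16, was -0.073 after the median ratio, 0.25 on the log2 scale, was divided out. With 1 added to each FPKM, low genes moved by less than this, as NR4A2 did, from -0.68 to -0.82. The median of all symbols after the shift was not computed. Without the 4 receptors at least 4-fold apart the median of the receptors was 0.28, an alternative chosen after seeing the data, as was the 4-fold count. Of 75 counts for single lists under other settings, 58 stayed within 1.5 times and 17 did not, 12 of these at 10 FPKM. Leaving out a library removes the comparison between libraries, so no such value exists for it. No paired analysis was possible because there is 1 group. Depth is unknown, so for silent receptors only the deposited upper bounds limit the level.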

Other observations

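Silent receptors often had CpG-rich windows upstream of a start. Taking for each gene the RefSeq window of 250 bases with the highest CpG ratio (observed over expected from base composition), 11 of 19 receptors under 1 FPKM in both libraries reached 0.6, or 57.9%, and their median was 0.79. Over all 5607 symbols under 1 FPKM in both libraries with a window, 34.3% reached 0.6, with a median of 0.37. For expressed receptors the numbers were 17 of 20 (85%) and a median of 0.83, beside 89.3% and 0.87 over 8374 expressed symbols. Genes with more listed starts had more windows to choose from, all symbols include noncoding genes, and DNA methylation was not measured here.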
